A study of Lotus japonicus with 36 samples.

Results

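Of 41299 loci measured in root nodules of Lotus japonicus MG-20, 104 lost transcript over 6 days of nitrate supply, mostly after the first day, and were still far below the untreated level 5 days after nitrate had been withdrawn. They were chosen on deposited FPKM, a measure of fragments normalised for model length and library size, with 1 transcript model for each locus, the model of highest mean FPKM over all libraries. The level used for the choice was the mean FPKM of a group's 3 libraries plus 1. Members had a mean of 5 to below 200 FPKM in untreated nodules, a level above 50% of the untreated level on nitrate day 1 and below 50% on day 4, and a level of at most 40% on nitrate day 6 and on days 4 and 5 after withdrawal. All 104 loci that met these limits are members. The fall itself and the shortfall after withdrawal are therefore how the loci were found, and their sizes are given below as a description.

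Root nodules of legumes house rhizobia that reduce atmospheric nitrogen for the plant, which pays for it with carbon. Where nitrate is plentiful in the soil, legumes suppress nodule formation and nitrogen fixation, and mature nodules kept on nitrate pass into a state that resembles early senescence. In Lotus japonicus, as in other legumes, nitrogen fixation depends on leghaemoglobin, the plant protein that holds free oxygen low in infected cells, and nitrate acts on nodules partly through NIN-like transcription factors. None of the transcript model IDs could be paired with a gene name or a function (0 matches in a RefSeq gene table of another assembly, LjGifu_v1.2). The members are thus described by ID and level alone, no nodule marker could be looked up to check the tissue, and no gene sequence is shown.

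The groups were nodules kept on 10 mM KNO3 for 1 to 6 days (T1 to T6), nodules sampled 1 to 5 days after removal of nitrate (R1 to R5), and untreated nodules at 4 weeks after inoculation (T0), each with 3 libraries that the series calls biological replicates, 36 in all. How long the R nodules had been on nitrate before its removal is not stated in the labels used here. No untreated nodules of a later age are among the groups, so treatment and plant age cannot be told apart, and each day is a separate harvest. In whole nodules, fewer cells of a type and less RNA per cell cannot be told apart either.

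Library totals lay between 34194054 and 45795038 estimated counts, and correlations of log2 CPM (counts scaled to library size) between libraries of a group between 0.945 and 0.976. Over the 14317 loci at 5 to below 200 FPKM in T0, the median level relative to T0 was lower by 0.32 on the log2 scale in T6, and by 0.13 after division by the TMM (trimmed mean of M-values) scaling factors. For the members the same T6 median was -3.21 in FPKM and -3.12 after that division.

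Described by day, most members were already lower on the first day of nitrate, where the rule kept all of them above 50% of T0. Their median then declined for 5 days. Over all 14317 loci the T1 median was 103.9% of T0. Over the fallers that regained, a set defined below, it was 79.7%. The median member stood at 80.4% of its T0 level in T1, 47.3% in T2, 33.2% in T3, 25.5% in T4, 14.5% in T5 and 10.8% in T6. After withdrawal the median was 12.2% in R1 and 21.2% in R2, lower again at 15.3% in R3, then 20.1% in R4 and 32.6% in R5. The untreated level itself spanned a wide range, with a median of 18.1 FPKM, quartiles of 10.3 and 35.7 FPKM and a highest value of 170.1 FPKM. In T6, 60 of the 104 members were under 1 FPKM and 3 had 0 counts in all libraries, against 8 members under 1 FPKM in R5.

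**Figure D1:**
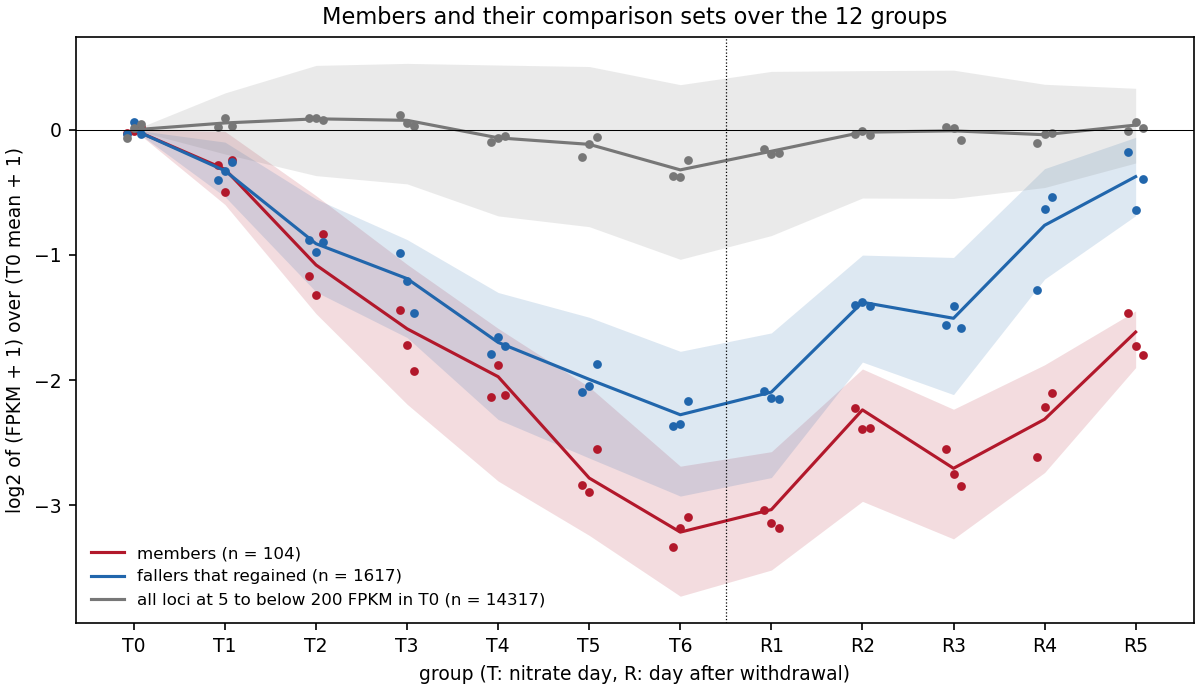
Level of 3 sets of loci in the 12 groups, as log2 of (FPKM + 1) over (T0 mean + 1). Lines join the medians of the group means, bands span the quartiles over loci, and points are the median in each of the 3 libraries. The members fall to a median of -3.21 in T6, lie at -2.24 in R2 and -2.71 in R3, and reach -1.62 in R5, where the fallers that regained lie at -0.37.

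The members did not simply stay at their nitrate level, so "not regained" holds for them only in the sense of the 40% limit. The mean FPKM in R5 was above that in T6 for 102 of the 104 members, and all 3 R5 libraries lay above all 3 T6 libraries for 91 of them, a separation that 35.1% of the 50475 tested models also had. The median member had regained 24.7% of the FPKM it had lost by T6, with quartiles of 15.5% and 27.8% and a highest value of 37.4%. Here T6 stands in for the level at withdrawal, since the time the R nodules spent on nitrate is not stated. All 3 R5 libraries lay below all 3 T0 libraries for 103 members (12.9% of all tested models). The exception, Lj5g3v1726050.1, had a low untreated library, with 18.2, 15.6 and 18.92 FPKM in R5 against 64.66, 55.16 and 17.88 FPKM in T0. By library, the median member stood at 36.2%, 30.3% and 28.8% of T0 in R5. In R4 these values were 16.3%, 21.5% and 23.2%, with replicate 1 lowest. Since the rule used R4, R5, T6 and T0, these values describe the choice and test nothing.

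**Figure D2:**
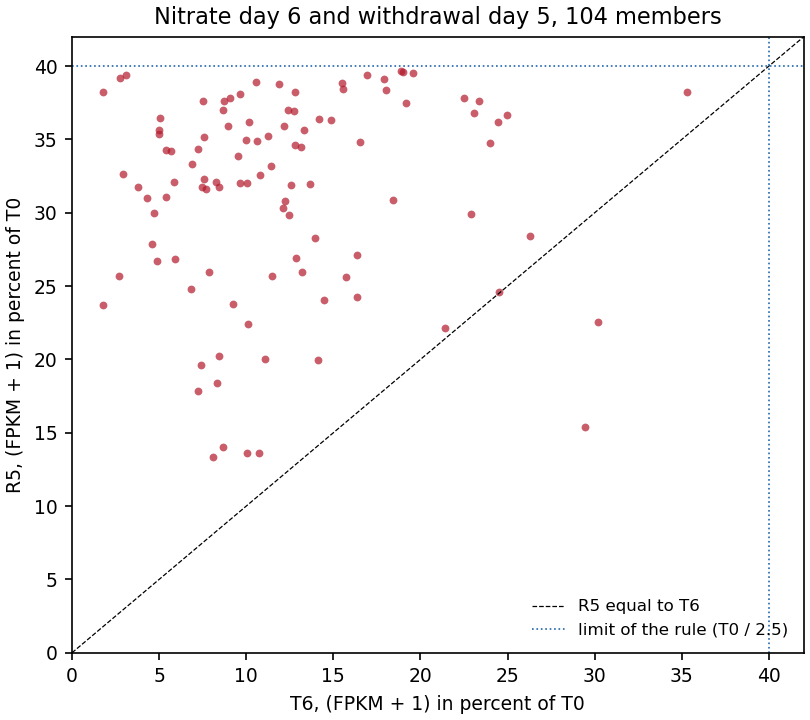
Level of the 104 members on nitrate day 6 (x axis) and withdrawal day 5 (y axis), each as (FPKM + 1) in percent of T0. Each point is 1 member, the dashed line marks equal levels and the dotted lines the 40% limit of the rule. All but 2 members lie above the line of equal levels, and many lie close under the R5 limit.

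The limit cut through a continuous range. The member just inside it in R5, Lj0g3v0336399.1, averaged 3.5 FPKM in R5 against 10.35 FPKM in T0, a level ratio of 0.397. The nearest locus outside, Lj6g3v0777190.1, averaged 5.85 FPKM in R5 against 16.08 FPKM in T0, a ratio of 0.401. Of the members, 84 lay above 25% of T0 in R5 and 20 at or below it. Another 1617 loci met the same limits on the nitrate days but not after withdrawal, and are called regained fallers here. Of these, 1305 exceeded the limit in both R4 and R5, 303 in R5 alone and 9 in R4 alone. Their median level in R5 was 77.1% of T0, and they had regained a median of 70.3% of their lost FPKM. In T6 their median had been 20.6% of T0, against 10.8% for the members, which had thus fallen further. A gap between these sets in R5 follows from the rule that split them.

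The lowest levels in R5 relative to T0 were those of Lj3g3v2247040.1 and Lj0g3v0086189.1. Lj3g3v2247040.1 had 0.9, 0.41 and 0.65 FPKM in R5 and 0 counts in the 3 T6 libraries, against 9.35, 11.09 and 13.62 FPKM in T0. It had held 3.12, 5.41 and 2.54 FPKM in T3 and was at 0.41, 0.51 and 0.23 FPKM in T4. Lj0g3v0086189.1 had 0.56, 0.18 and 0.31 FPKM in R5, against 7.89, 7.89 and 11.03 FPKM in T0, and likewise 0 counts in T6. For both, the R5 libraries lay far below every untreated library, at 5.76% and 3.92% of the T0 mean FPKM.

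The most abundant members in untreated nodules behaved differently from each other. Lj0g3v0135649.1 was at 161.5, 148.37 and 200.37 FPKM in T0. It kept 95.05, 95.7 and 138.26 FPKM in T5, 38.07, 37.46 and 47.24 FPKM in T6, and 54.19, 38.22 and 30.75 FPKM in R5, so its R5 libraries overlapped those of T6. It was thus the member with the highest T6 mean, 40.9 FPKM. Lj0g3v0003829.1 was at 138.5, 144.52 and 166.84 FPKM in T0. It was at 3.12, 1.34 and 5.06 FPKM in T6 and 56.72, 58.6 and 59.03 FPKM in R5, with R5 libraries close together and well above T6. Its counts could not be separated from those of Lj0g3v0003819.1, a longer model (3091 against 2072 bases). Its rank by FPKM is therefore uncertain.

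On the first nitrate day 25 members had a mean above T0, and these 25 had their highest mean of all 12 groups in T1. The highest mean was in T0 for 77 members and in T2 for 2. All 3 T1 libraries lay above all 3 T0 libraries for 7 members, or 6.73%, against 19.9% of all tested models. The largest T1 level relative to T0 was that of Lj3g3v3238990.1, with 19.65, 26.05 and 25.34 FPKM in T1 against 11.25, 14.24 and 15.39 FPKM in T0. Lj0g3v0069039.1 followed, with 83.36, 78.34 and 81.53 FPKM in T1 against 53.92, 56 and 56.67 FPKM in T0. In both the groups did not overlap. By T6 these members were at 0.62 ± 0.36 and 4.99 ± 1.72 FPKM (SD, n = 3).

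Groups T2, T3, T5, R1, R2 and R3 were not used by the rule, apart from the choice of the model at the 4 member loci with more than 1 model, which took the mean over all libraries. Contrasts among these groups can therefore be tested. Models were called when edgeR's quasi-likelihood test gave a p under 0.05 after Benjamini-Hochberg adjustment over 50475 models and the change was at least 2-fold. All 104 members were tested, and 8 were called in none of the 5 contrasts. Some members share reads, so counts of members called are not counts of independent loci. That the members fall between T2 and T5 follows largely from limits set before and after these days. What the tests add is the size and the day of each step. Members and regained fallers differ by rule in R4 and R5, so a gap between them in R1 to R3 can follow from that split.

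Between nitrate days 2 and 5 most members fell further. In T5, 86 of the 104 members (82.7%) were called lower than in T2, where 9.54% of all tested models were called lower, and 1 was called higher, beside 11.5% of all models. The median log2 fold change of the members was -2.33, with quartiles of -2.95 and -1.38, against a median of 0.06 over all tested models. Of the regained fallers 60.5% were called lower, with a median of -1.25. The difference between these sets of loci was not tested. Already on day 3, 27 members were called lower than in T2 and 1 higher, beside 1.47% and 2.3% of all tested models, with a member median of -0.87. The day 3 count rested on single libraries, being 8 without T3 replicate 3 and 12 without T2 replicate 3.

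By the named-gene rule the largest falls from day 2 to day 3 were those of Lj3g3v3245270.1 and Lj4g3v1410010.1. Lj3g3v3245270.1 had 2.85, 2.35 and 0.81 FPKM in T3 against 10.61, 6.65 and 16.72 FPKM in T2, without overlap (log2 fold change -2.58 ± 0.43, SE, edgeR adjusted p = 0.000243). Lj4g3v1410010.1 had 2.09, 0.7 and 0.88 FPKM in T3 against 5.82, 4.32 and 8.28 FPKM in T2 (log2 fold change -2.42 ± 0.45, edgeR adjusted p = 0.000782). Under the same rule, which asks for 10 CPM or more on average where the member is higher and for libraries that do not overlap, it was also the largest fall in T5. There it was listed at 0.06, 0 and 0 FPKM. The fitted value for T5 against T2, -7.91 ± 0.72 (edgeR adjusted p = 1.38e-09), depends on the prior count, since only replicate 1 of T5 held counts. It was -11.98 without that library. The next largest fall in T5 under that rule was that of Lj5g3v1726050.1, with 2.3, 2.2 and 2.39 FPKM in T5 against 46.58, 45.54 and 44.79 FPKM in T2 (log2 fold change -4.19 ± 0.62, edgeR adjusted p = 3.64e-06). Both groups were tight in this member, in contrast to its untreated libraries.

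A single member was called in the other direction. Log2 fold changes against T2 were above 0 for 12 members in T3 and for 4 in T5. Lj3g3v3640130.2, the only member called higher in T3 and in T5 than in T2, had 21.13, 16.83 and 17.29 FPKM in T5 against 11.29, 7.12 and 11.19 FPKM in T2 (log2 fold change 1.03 ± 0.27, edgeR adjusted p = 0.00332). Against T2 its T3 log2 fold change was 1.00 ± 0.27 (edgeR adjusted p = 0.0183), with 27.71, 23.55 and 11.1 FPKM in T3, overlapping T2. The T3 call was lost in a fit of the 2 groups alone and without T3 replicate 1, T3 replicate 2 or T2 replicate 2, which left 0 members called higher. Over the nitrate days its means were 48.5 FPKM in T0, 26.4 in T1, 9.87 in T2, 20.8 in T3, 9.97 in T4, 18.4 in T5 and 5.05 in T6, so that low and higher days alternated. Its call in T5 missed the 2-fold threshold without T2 replicate 2 (log2 fold change 0.84) and without T5 replicate 1 (0.73). No count of this model was whole, and the other 2 models of its locus had similar levels, so which of the 3 carried the reads is uncertain.

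**Figure D3:**
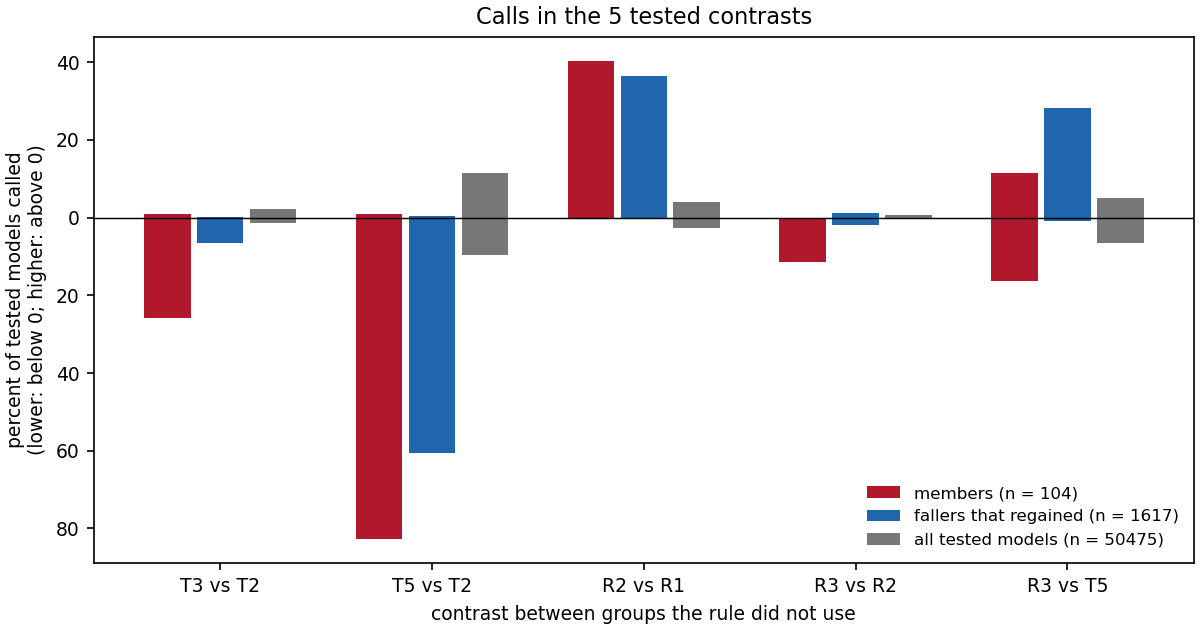
Percent of models called higher (bars above 0) or lower (bars below 0) in the 5 contrasts between groups that the rule did not use, for the 104 members, the 1617 regained fallers and all 50475 tested models. The members have 82.7% called lower in T5 against T2, 40.4% called higher in R2 against R1, and calls in both directions in R3 against T5.

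On the second day after withdrawal many members rose. In R2, 42 of the 104 members (40.4%) were called higher than in R1 and 0 lower, where 4.09% and 2.57% of all tested models were called. At an unadjusted p under 0.05, 66 members were higher and 1 lower by edgeR, and DESeq2 called 48 higher and 0 lower. The median log2 fold change of the members was 1.08 (quartiles 0.60 and 1.63) and that of all tested models -0.01. Among the regained fallers 36.5% were called higher, with a median of 0.81. In 63 members, or 60.6%, every R2 library lay above every R1 library, as in 16.4% of all tested models. Among the regained fallers this share was higher, at 70.4%. The count of 42 was 27 without R2 replicate 1.

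Of members averaging at least 10 CPM in R2, with no overlap of libraries, the largest rise was that of Lj0g3v0077489.1, with 14.46, 11.74 and 15.41 FPKM in R2 against 0.81, 0.61 and 0.99 FPKM in R1 (log2 fold change 3.95 ± 0.44, SE, edgeR adjusted p = 1.12e-06). It had been among the more abundant members, at 111.75, 101.9 and 99.97 FPKM in T0, and had the highest R5 level relative to T6 of all members, with 60.57, 31.77 and 25.71 FPKM in R5 against 0.41, 1.25 and 0.97 FPKM in T6. Lj0g3v0338379.1 had 25.73, 23.84 and 6.5 FPKM in R2 against 3.06, 2.67 and 1.02 FPKM in R1 (log2 fold change 2.88 ± 0.53, edgeR adjusted p = 0.000437). In R2 its replicate 3 was much lower than the other libraries, yet still above every R1 library.

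The gain of day 2 was not kept in all members. In R3, 12 members (11.5%) were called lower than in R2 and 0 higher, beside 0.479% and 0.622% of all tested models. At an unadjusted p under 0.05, 44 members were lower and 2 higher by edgeR, and DESeq2 called 20 lower and 1 higher. The count of 12 was 7 without R2 replicate 1 and 7 without R3 replicate 2. The member median was -0.65 on the log2 scale, against 0.01 over all tested models. Over the regained fallers it was -0.09, and 1.98% of them were called lower. The split of these sets by R4 and R5 favours such a gap. All 12 members called lower had also been called higher in R2 than in R1, and both contrasts share the R2 libraries, so a chance high value in R2 favours both calls. The mean FPKM in R2 was above that in R1 and in R3 for 87 members, or 83.7%, against 60.8% of the regained fallers and 41.1% of all loci at 5 to below 200 FPKM in T0.

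By the named-gene rule the largest drop in R3 was again that of Lj0g3v0338379.1, with 3.59, 2.79 and 1.81 FPKM in R3 against 25.73, 23.84 and 6.5 FPKM in R2 (log2 fold change -2.73 ± 0.52, SE, edgeR adjusted p = 0.00316). It stayed at 1.27, 3.61 and 5.37 FPKM in R4 and stood at 17.8, 27.24 and 21.06 FPKM in R5, so that its R2 mean of 18.7 FPKM was above those of R1, R3 and R4 but below the R5 mean of 22.03 FPKM. Lj0g3v0340909.1 had 4.17, 1.79 and 2.57 FPKM in R3 against 10.78, 7.2 and 10.24 FPKM in R2 (log2 fold change -1.71 ± 0.29, edgeR adjusted p = 0.00111), and its mean of 8.29 ± 1.30 FPKM in R5 was still under the R2 mean of 9.41 ± 1.93 FPKM (SD, n = 3).

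**Figure D4:**
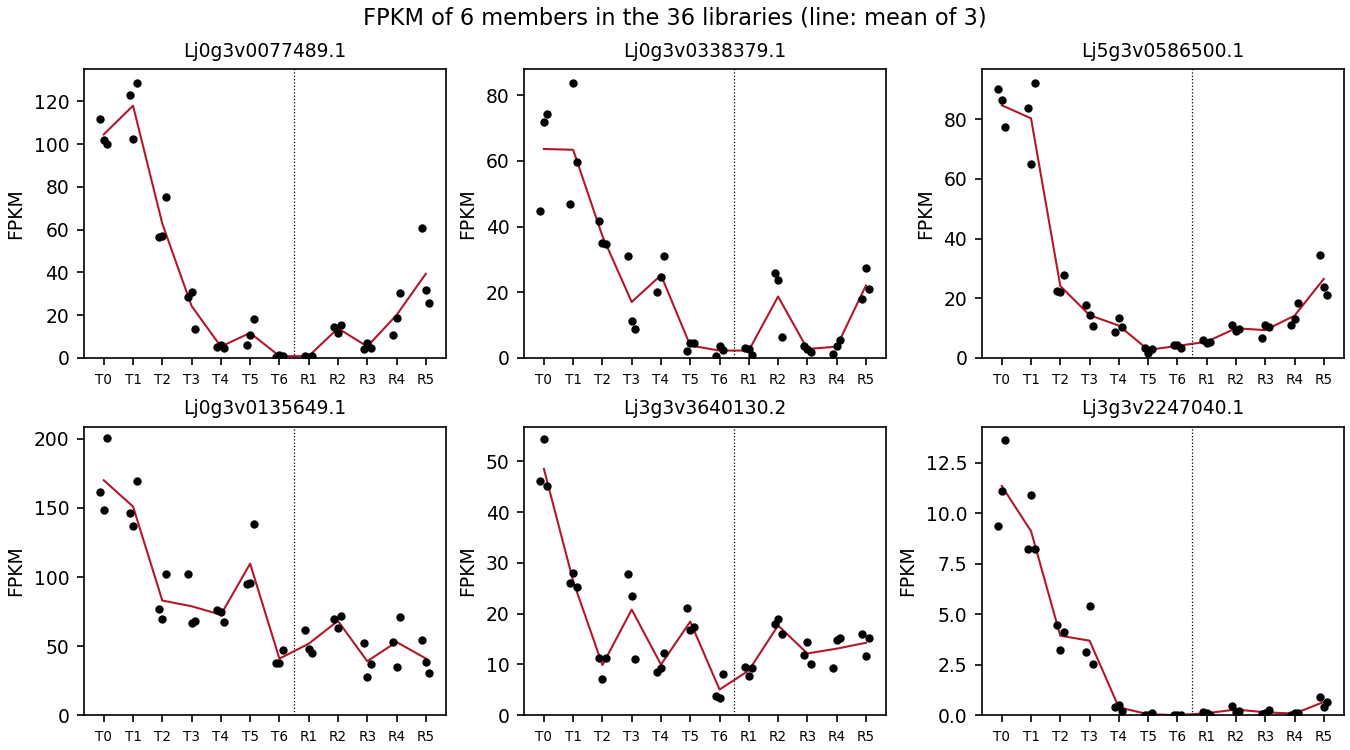
FPKM of 6 members in all 36 libraries, T0 to T6 left and R1 to R5 right of the dotted line. Points are libraries and lines join the group means. Lj0g3v0077489.1 and Lj0g3v0338379.1 have an R2 mean above those of R1 and R3, below that of R5. Lj5g3v0586500.1 has R4 and R5 means above the earlier withdrawal days, Lj0g3v0135649.1 a high remaining level, Lj3g3v3640130.2 alternating nitrate days and Lj3g3v2247040.1 almost no regain.

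On day 3 after withdrawal the members were split around their level of nitrate day 5. In R3, 12 members were called higher than in T5 and 17 lower, beside 5.08% and 6.61% of all tested models. Their median log2 fold change was 0.01, with 52 members above 0 and 52 below. Of the regained fallers 28.1% were called higher and 0.866% lower, with a median of 0.66. Their R4 or R5 level set them apart from the members by rule, which favours a gap in R3 as well. These member counts are uncertain. The number called higher was 3 without T5 replicate 2 and 7 without R3 replicate 1. The number called lower was 10 without T5 replicate 3 and 10 without R3 replicate 3. A fit of these 6 libraries alone gave 4 higher and 8 lower.

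The members called higher and lower in R3 had been at different levels on the late nitrate days. The 17 called lower had a median of 33.2% of T0 in T4, 26.0% in T5 and 9.51% in T6, then 12.5% in R3 and 27.1% in R5. The 12 called higher had medians of 12.6% in T4, 7.01% in T5 and 7.97% in T6, then 14.1% in R3 and 33.5% in R5. Because T5 and R3 chose these subsets, the 17 tend to be high in T5 and the 12 low. Their values on those days are a description, and no timing of the loss is read from them.

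Of the rises named by the same rule, Lj5g3v1726050.1 had 4.43, 16.51 and 28.46 FPKM in R3 against 2.3, 2.2 and 2.39 FPKM in T5 (log2 fold change 2.89 ± 0.60, SE, edgeR adjusted p = 0.000803), with R3 libraries far apart. Lj5g3v0586500.1 had 6.8, 10.91 and 10.22 FPKM in R3 against 3.28, 1.7 and 3.15 FPKM in T5 (log2 fold change 1.78 ± 0.28, edgeR adjusted p = 5.01e-05). Its means then were 14.2 FPKM in R4 and 26.5 FPKM in R5, beside 84.7 FPKM in T0. Of the falls, Lj4g3v1725030.1 had 2.38, 1.82 and 1.09 FPKM in R3 against 9.01, 10.4 and 7.49 FPKM in T5 (log2 fold change -2.34 ± 0.35, edgeR adjusted p = 2.46e-05). Lj4g3v1151760.1 had 3.21, 2.7 and 3 FPKM in R3 against 6.11, 11.24 and 10.01 FPKM in T5 (log2 fold change -1.57 ± 0.25, edgeR adjusted p = 5.44e-05). Both of these falls had an R2 level between the others, with means of 4.54 and 7.07 FPKM, and T6 means of 0.517 and 1.13 FPKM.

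Several properties of the member loci were not used by the rule. At 100 of the 104 loci the member is the only model. The other 4 loci have 5 further models, all at 5 FPKM or more in T0, and 4 of these 5 met the 40% limit in R5 as well. The fifth, Lj2g3v2843630.2, had a ratio of R5 to T0 level of 0.415. The models had a median length of 946.3 bases (quartiles 543.6 and 1380), against 1131 bases for the regained fallers and 1099 bases for all 14317 loci. By the prefix of the ID, 31.7% of the members carry Lj0g, 11.5% Lj1g, 15.4% Lj2g, 12.5% Lj3g, 11.5% Lj4g, 10.6% Lj5g and 6.73% Lj6g. Over the 14317 loci these shares are 29.5%, 17.3%, 11.4%, 12.1%, 12.8%, 9.28% and 7.61%.

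In the order of the IDs, 11 members lie directly beside another member, in 4 runs with 7 neighbouring pairs. Positions on the genome were not used here. The longest run, named after its values had been seen, holds the 4 loci from Lj5g3v1207930.1 to Lj5g3v1207960.1. The first of these had 31.15, 31.59 and 22.05 FPKM in R5 against 77.6, 81.43 and 84.2 FPKM in T0, and the last had 22.89, 24.87 and 17.28 FPKM in R5 against 71.47, 65.19 and 65.16 FPKM in T0. All 4 were called lower in T5 than in T2, with log2 fold changes of -2.81, -2.46, -2.59 and -2.55 (edgeR adjusted p of 3.75e-08 or less for 3 of them and 2.2e-07 for Lj5g3v1207940.1). At most 5.6% of their counts were whole, so they share reads with other models and are not 4 independent observations. The same holds for Lj0g3v0003819.1 and Lj0g3v0003829.1, whose counts differed by at most 0.721% in any library and cannot be separated. Some members far apart in ID order also had nearly the same values. Lj0g3v0024829.1 and Lj3g3v2851220.1 both had 5.91, 2.15 and 4.48 FPKM in R5. In T0, Lj0g3v0047209.1 had 15.61, 14.36 and 14.39 FPKM and Lj0g3v0336479.1 had 15.93, 14.44 and 14.22 FPKM. Of the 104 members, 39 had whole counts in every library, beside 10794 of all 50526 models. Over the 36 libraries, the log2 levels of neighbouring members correlated at 0.94 to 1.00, where the median over all pairs of members was 0.834, with a 95th percentile of 0.936. These correlations rest on the same libraries and on the shared course over the days, which the rule imposed.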

How the data were processed

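RNA-seq of 36 nodule libraries was analysed from 2 deposited tables. Per the submitters' processing notes, fastp 0.22.0, HISAT2 and featureCounts were used; the sources used here name no genome build, annotation or strand setting. The authors deposited estimated counts for 50526 transcript models, of which 49.6% of values are not whole (tolerance 0.001), and FPKM values computed from them. FPKM served to choose and describe the members, with a pseudocount of 1. Model lengths were derived from counts and FPKM.

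Estimated counts were rounded and tested with edgeR 4.0.16 in R 4.3.3 (TMM, filterByExpr, glmQLFit, glmQLFTest) in 1 model of 12 groups, and 50475 models passed the filter. SEs are the fold change divided by the square root of F. Adjusted p-values cover all tested models. The procedure was tested on simulated data. Alternatives included DESeq2 1.42.0. The smallest chi-square per degree of freedom between libraries of a group was 10.8, so none was treated as a duplicate.

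The members and lists were chosen with earlier results of these data known. Named members were, for each contrast, the 2 largest called rises and falls without overlap of libraries and averaging 10 CPM or more in 1 of both groups, plus the extremes of T0 level, T1, R5 and the limit. Marker lists could not be used, since 0 IDs matched a gene name. Intervals are not given for single libraries, and depth limits the lowest values.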

Additional observations from a re-analysis of the deposited data

How the results depend on the processing

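The members' counts called lower in T5 against T2 (76 to 87 without any 1 library) and called higher in R2 against R1 stayed within 1.5 times the reported count with RLE size factors, no filter on low counts, DESeq2, a fit of the 2 groups alone and counts summed per locus. Leaving out 1 library gave 27 to 41 higher in R2 against R1, 8 to 31 lower and 0 to 1 higher in T3 against T2, 0 to 1 higher in T5 against T2, 7 to 10 lower in R3 against R2, and 3 to 12 higher and 10 to 16 lower in R3 against T5. The fit of 2 groups alone gave 0 higher in T3 against T2, and 4 higher and 8 lower in R3 against T5. DESeq2 gave 20 lower and 1 higher in R3 against R2. The cause of these shifts was not tested. Since 50475 of 50526 models passed the filter, the setting without it could hardly move any count. The members' median log2 fold change in R3 against T5, 0.009, had no stable sign: it was -0.015 in the fit of the 2 groups alone, -0.109 without T5 replicate 2 and -0.014 without R3 replicate 3. No named member changed direction in its own contrast under these alternatives. The replicate numbers do not pair the libraries (correlations of deviations between -0.15 and 0.142), and with a replicate block 85 members were lower in T5 against T2, 42 higher in R2 against R1, 12 lower in R3 against R2, and 10 higher and 16 lower in R3 against T5.

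The rule gave 226 members with a limit of T0 over 2, 15 with T0 over 4, 139 with a pseudocount of 0.1 (98 shared with the 104), 115 with FPKM divided by TMM factors (95 shared) and 106 with FPKM summed per locus. Without any 1 library it gave 98 to 138, the latter without R5 replicate 1. With 3 libraries a group, counts near the call threshold move with single libraries.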
